A study of Mus musculus with 466 samples.

Results

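The transcripts described here are those of the fat depot labelled perigonadal in male C57BL/6J mice after 21 days of caloric restriction, set against the same depot at day 0. The series measured 466 Affymetrix arrays from 6 tissues of obese mice during diet-induced weight loss, and 75 of them carry the perigonadal label. The samples were chosen by their labels alone: 11 arrays of day 21 (6 mice whose ID opens with J and 5 with N) and 11 arrays of day 0 (6 J and 5 N). Each array is labelled as a separate biological replicate, and the meaning of the letter is not given in the labels. Both groups share strain, sex and prior obesity, and differ in the days of restriction. No unrestricted mice killed on day 21 are among the samples, so the time that passed and the restriction cannot be told apart. The degree of restriction, the diet and the ages of the mice are not given in the sources used here. All genes were described, and a gene was called when limma gave a Benjamini-Hochberg adjusted p under 0.05 over 13448 genes, with the letter as an additive term.

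White fat stores triglyceride in adipocytes and releases fatty acids when intake falls short of need. Adipocytes make fatty acids from citrate and glucose, esterify them on glycerol, and secrete hormones such as leptin and adiponectin. Around them lie a collagen-rich matrix, fibroblast-like precursors, blood vessels, nerves, macrophages, mast cells and lymphocytes. Bulk tissue RNA sums over all of these, and in such samples fewer cells of a type and less RNA per cell cannot be told apart.

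The depot label was checked against position genes, which mark where in the body a fat pad lies. Over all days, Tbx15, a factor typical of subcutaneous mouse fat, had a median intensity of 0.520 on the arrays labelled perigonadal, against 0.0543 on those labelled subcutaneous and 0.0467 on those labelled mesenteric. Hoxc10, another gene known from subcutaneous fat, had medians of 1.85 (labelled perigonadal), 1.39 (labelled perirenal), 0.133 (labelled subcutaneous) and 0.0686 (labelled mesenteric). Wt1, which marks the mesothelium that covers abdominal fat pads, was at 0.0202 on the arrays labelled perigonadal, against 0.752 on those labelled subcutaneous and 0.506 on those labelled mesenteric. The mesothelial genes Msln, Lrrn4 and Bnc1 and the visceral gene Tcf21 were, like Wt1, below the dim-gene filter. These levels go against the perigonadal label, so the tissue is called the depot labelled perigonadal throughout. Fat itself was plain: Adipoq had a median of 19.1 on these arrays, against 0.0461 in liver. The authors' scaling between tissues is not known, so levels in different tissues are given for this check of the label and not as results.

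Some arrays stood apart in markers of other cells. The summed intensity of 11 B cell genes was 14.8 in mouse N3 and 11.8 in N99 at day 21, and 9.49 in N74 at day 0, where the medians of the groups were 3.16 at day 21 and 2.68 at day 0. The summed skeletal muscle genes ranged from 18.9 to 108.6 at day 21 (median 42.9) and from 18.8 to 121.6 at day 0 (median 20.8). No member of the list of 15 muscle genes and none of the 10 B cell genes tested passed the test, and none had an unadjusted p under 0.05 in limma. With both scores as covariates 2902 genes were called, and without the 15 arrays of the depot that were high in B cell genes (2 of day 21, 1 of day 0) 2166 were called.

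Of the 13448 genes tested, 2634 (19.6%) differed between day 21 and day 0. At day 21, 1250 genes (9.30%) were higher and 1384 (10.3%) were lower. In J mice and in N mice fitted alone, 2631 of the 2634 had the same sign. The 2634 were chosen by a fit of these same mice together, so this agreement is largely built in and tests nothing. J mice alone also called 805 of the 2634, and N mice alone 1026. The changes were mostly small. The median absolute log2 change of the called genes was 0.14, 20 genes were over 0.5 higher and 55 over 0.5 lower. In 92 genes (0.684%) the values of the 2 groups did not overlap, 13 of them higher and 79 lower at day 21. J mice alone gave 875 called genes (464 higher, 411 lower) and N mice alone gave 1119 (384 higher, 735 lower). With scores of muscle, red cell, skin and mesothelium genes as covariates 1231 were called (492 higher, 739 lower). The skin and mesothelium lists themselves hold called genes: Krt79, a keratin of skin glands, was 0.51 ± 0.08 log2 lower (SE), and Gpm6a and Krt19 were 0.44 ± 0.08 and 0.41 ± 0.10 higher. Of the 140 called genes chosen by the naming rules, 54 were not called in J mice alone, 65 were not called in N mice alone and 58 were not called with the marker covariates.

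**Figure D1:**
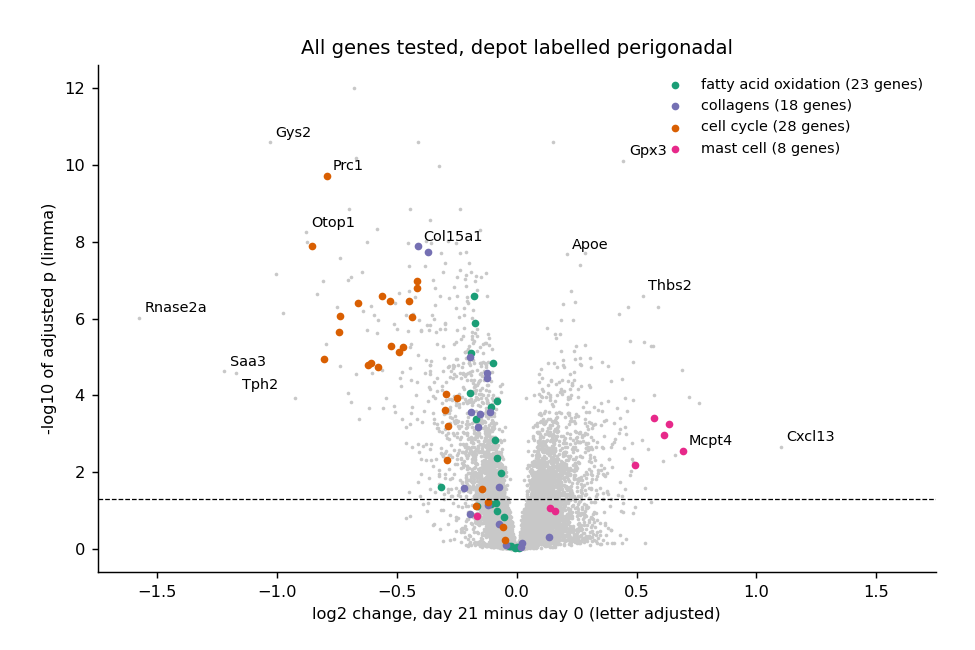
Every gene tested in the depot labelled perigonadal, by log2 change (day 21 minus day 0, x axis) and -log10 of the adjusted p (y axis), with the 0.05 threshold dashed. Cell cycle genes lie on the lower side, with 24 of 28 called, and 5 of 8 mast cell genes lie above the threshold on the higher side.

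Genes of cell division fell together. Of 32 genes in the list, 28 were tested, all 28 had a negative log2 change, and 24 were called lower, beside 10.3% of all genes. The median log2 change of the list was -0.46, against 0.0064 over all genes. Prc1, which bundles the microtubules of the central spindle, lay between 0.165 and 0.282 at day 21 (median 0.245), against 0.302 to 0.517 at day 0 (median 0.390). The groups did not overlap, with a log2 change of -0.79 ± 0.09 (SE, adjusted p = 1.89e-10). Cenpf, a kinetochore protein, had a median of 0.0551 at day 21 (0.0452 to 0.0822), against 0.101 at day 0 (0.0666 to 0.139). Its log2 change was -0.85 ± 0.11. Top2a, the topoisomerase that untangles replicated DNA, had a median of 0.224 at day 21 (0.181 to 0.362) and 0.377 at day 0 (0.294 to 0.489), a log2 change of -0.62 ± 0.11 (adjusted p = 1.58e-05). Plk1, the mitotic kinase, and Cdc20, which activates the anaphase-promoting complex, were each 0.42 ± 0.06 lower on the log2 scale. A further pair of mitotic genes was among the 12 largest falls: Pbk (-0.88 ± 0.11), a mitotic kinase, and Spc25 (-0.83 ± 0.12), an outer kinetochore protein. The gene with the smallest adjusted p of all, named after its values were seen, was Iqgap3, at 0.0939 ± 0.0102 at day 21 and 0.151 ± 0.0185 at day 0 (mean ± SD, n = 11 each), with an adjusted p of 9.92e-13. Fits of single letters called 23 members (J) and 22 (N), and the fit with marker covariates called 22. These genes are dim on the array: a filter at percentile 50 of all probe sets took dim members out of the test, and 8 members were called under it.

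The promoters of cell cycle genes are known to carry a CCAAT box, bound by NF-Y, and the cell cycle genes homology region TTTGAA. RefSeq promoters (build GRCm38.p6, 250 bases before to 50 after the first listed start site) were found for 21 of the 24 called members and searched on both strands. TTTGAA was present in 13 of 21 (61.9%), against 18.11% of all 27025 promoters, and CCAAT in 17 of 21 (80.95%), against 37.92%. Both motifs stood in 13 of 21 (61.9%), against 7.123% of all promoters. A match is a run of letters and not a measured binding site. These motifs are known for genes of this kind, and uncalled members were not compared. The shares thus describe the list and not the change at day 21. The promoters of 3 of the called lower members are shown 5′ to 3′ on the strand of the gene. Both motifs, on either strand, are in capitals, with no overlap between them. The members shown are Prc1 (chr7:80294201-80294500, plus strand), Cenpf (chr1:189688037-189688336, minus strand) and Cdc20 (chr4:118437294-118437593, minus strand).
Prc1: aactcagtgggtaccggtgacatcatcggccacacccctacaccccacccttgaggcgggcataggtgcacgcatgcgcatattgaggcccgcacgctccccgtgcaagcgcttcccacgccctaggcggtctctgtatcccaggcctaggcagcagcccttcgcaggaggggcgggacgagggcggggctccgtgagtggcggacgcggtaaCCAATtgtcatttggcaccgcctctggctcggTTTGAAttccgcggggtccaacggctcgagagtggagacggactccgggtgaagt
Cenpf: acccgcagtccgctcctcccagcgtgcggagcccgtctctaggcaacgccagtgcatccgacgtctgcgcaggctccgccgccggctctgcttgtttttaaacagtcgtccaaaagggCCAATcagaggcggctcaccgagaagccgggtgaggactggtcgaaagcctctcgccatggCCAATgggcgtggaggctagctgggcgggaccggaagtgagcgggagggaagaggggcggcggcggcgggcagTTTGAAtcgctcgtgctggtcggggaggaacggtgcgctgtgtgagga
Cdc20: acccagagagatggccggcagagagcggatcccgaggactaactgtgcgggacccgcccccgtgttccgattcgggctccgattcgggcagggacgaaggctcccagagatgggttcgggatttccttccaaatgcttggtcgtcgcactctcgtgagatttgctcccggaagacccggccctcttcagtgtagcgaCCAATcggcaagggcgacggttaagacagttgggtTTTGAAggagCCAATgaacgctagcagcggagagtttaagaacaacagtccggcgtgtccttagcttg

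Among metabolic genes, Gys2 stood out. Gys2, the glycogen synthase of liver and fat, lay between 0.526 and 1.08 at day 21 (median 0.725), against 1.21 to 1.74 at day 0 (median 1.49). No mouse of one day reached the range of the other. The log2 change was -1.03 ± 0.10 (SE, adjusted p = 2.57e-11), and it was -0.90 in J mice and -1.19 in N mice. Of the 22 insulin and glucose genes tested, 4 were lower (2 in J mice alone), beside 10.3% of all genes. A further 1 was higher, beside 9.30%. Pfkl, the liver-type phosphofructokinase of glycolysis, was 0.19 ± 0.03 lower on the log2 scale, and Slc2a1, the basal glucose transporter, was 0.19 ± 0.04 higher. Slc2a4, the insulin-responsive glucose transporter, did not pass the test, with medians of 7.68 at day 21 and 7.75 at day 0.

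Called fatty acid synthesis genes went both ways. Of 22 tested, 6 were lower, beside 10.3% of all genes, and 3 higher, beside 9.30%. J mice alone gave 2 lower and 1 higher, N mice gave 6 and 2, and the marker covariates 6 and 1. Slc25a1, the carrier that exports mitochondrial citrate for fatty acid synthesis, lay between 2.34 and 2.91 at day 21 (median 2.68), against 3.19 to 3.97 at day 0 (median 3.59), without overlap. Its log2 change was -0.43 ± 0.06 (adjusted p = 7.60e-07). Taldo1, a pentose phosphate enzyme that helps supply NADPH, likewise did not overlap, at 6.87 to 8.21 at day 21 and 8.24 to 8.86 at day 0. Fasn, the fatty acid synthase, had a median of 9.90 at day 21 (8.52 to 12.8) and 11.7 at day 0 (10.6 to 12.3). It was 0.23 ± 0.06 lower on the log2 scale, although 1 day 21 mouse exceeded every day 0 mouse. On the other side, Mlxipl, the glucose-sensing factor ChREBP, was 0.24 ± 0.06 higher, and Fads1, the delta-5 desaturase, was 0.24 ± 0.05 higher. Scd1, the stearoyl-CoA desaturase, was called 0.04 ± 0.01 higher, but its sign turned when all its probe sets were averaged (-0.0018, adjusted p = 0.975). Acly, Elovl6 and Srebf1 did not pass the test, with log2 changes of 0.03, -0.11 and -0.03.

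Triglyceride assembly moved one way among its called members: 7 of 15 were lower, beside 10.3% of all genes, and none higher. Fits of single letters called 3 of them (J) and 4 (N), and the fit with marker covariates 4. Agpat2, which adds the second acyl chain, had a median of 9.75 at day 21 (8.44 to 11.3) and 11.2 at day 0 (10.9 to 11.5). Its log2 change was -0.19 ± 0.03 (adjusted p = 2.90e-05). Dgat1, which adds the last acyl chain, was 0.19 ± 0.04 lower, and Gpd1, which makes glycerol phosphate, was 0.14 ± 0.02 lower. Mogat2, a monoacylglycerol acyltransferase, was 0.46 ± 0.10 lower. Pck1, the glyceroneogenic enzyme, did not pass the test, with medians of 14.6 at day 21 and 14.5 at day 0. Of 19 cholesterol synthesis genes tested, 5 were lower, beside 10.3% of all genes, among them Nsdhl (-0.35 ± 0.07) and Tm7sf2 (-0.26 ± 0.05). A further 2 were higher, beside 9.30%, among them the regulator Srebf2 (0.13 ± 0.04). J mice alone gave no called member of that list, in either direction.

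Of 12 genes of triglyceride breakdown tested, 2 were lower and none higher, beside 10.3% of all genes lower and 9.30% higher. Neither was called in J mice alone. Pnpla2, which encodes the first lipase of the pathway, did not pass the test, with medians of 12.7 at day 21 and 12.8 at day 0. Lipe, the hormone-sensitive lipase, was dim on this array (medians 0.0640 at day 21 and 0.0613 at day 0). Over all days its median was 0.0617 in this depot and 0.0651 in liver, and whether its probe set reads the transcript was not tested, so its values say little about the gene. Hcar2, a receptor that inhibits lipolysis, was called lower (-0.25 ± 0.07), and Mgll, the monoglyceride lipase, was 0.05 ± 0.01 lower.

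**Figure D2:**
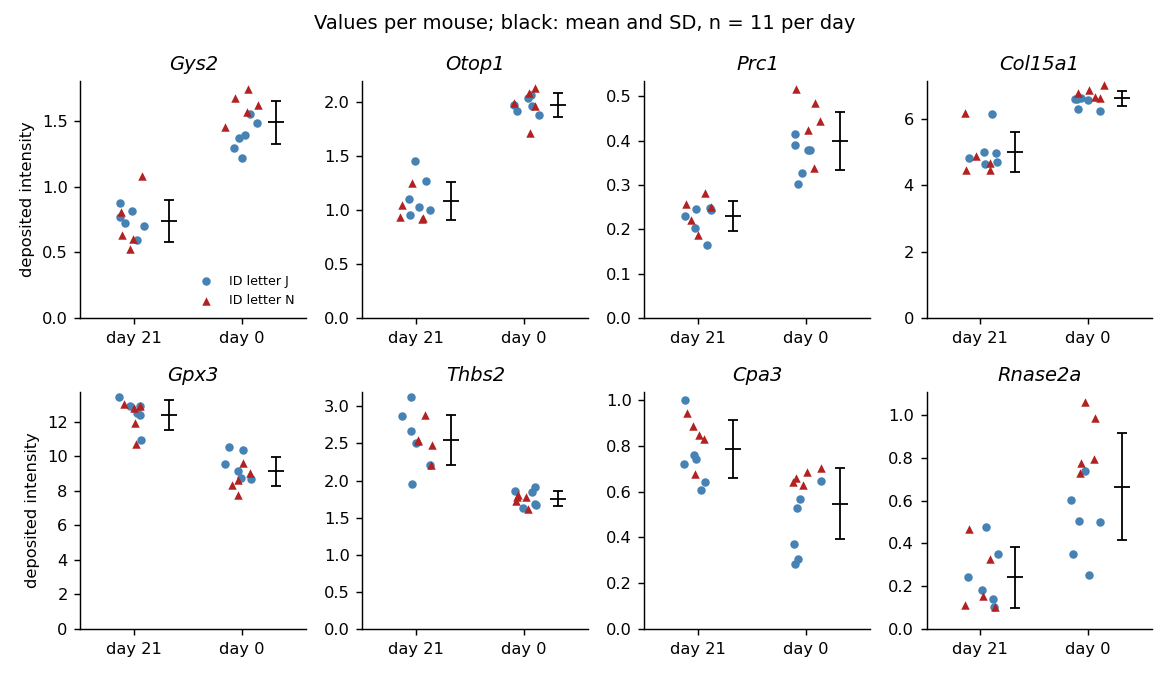
Intensity in every mouse for 8 genes, day 21 left and day 0 right, with circles for J and triangles for N mice and black bars for mean ± SD of 11 mice. In Gys2, Otop1, Prc1, Col15a1, Gpx3 and Thbs2 the groups do not overlap, while Cpa3 and Rnase2a overlap.

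Called mitochondrial genes were lower by small amounts. Of 23 fatty acid oxidation genes tested, 12 were lower, beside 10.3% of all genes, and none higher. Of 17 genes of the citric acid cycle and pyruvate entry, all had a negative log2 change and 11 were called. Of 26 respiratory chain genes, 11 were lower and none higher. Etfdh, which passes electrons from acyl-CoA oxidation to ubiquinone, lay between 4.15 and 4.84 at day 21 (median 4.62), against 4.91 to 5.47 at day 0 (median 5.18). The groups did not overlap (log2 change -0.18 ± 0.03, adjusted p = 2.51e-07). Slc25a20, the carnitine-acylcarnitine carrier, did not overlap either, at 3.37 to 3.94 at day 21 and 3.96 to 4.41 at day 0. Dlat, the acetyltransferase of pyruvate dehydrogenase, ranged from 3.21 to 3.82 at day 21, below the 3.98 to 4.39 of day 0, and fell by 0.26 ± 0.04 on the log2 scale. Sucla2, a subunit of succinyl-CoA synthetase, ranged from 6.18 to 7.33 at day 21 and from 7.38 to 7.69 at day 0. Dld, the lipoamide dehydrogenase shared by the 2-oxoacid complexes, also did not overlap (-0.23 ± 0.04). In the respiratory chain the most significant member was the complex I subunit Ndufa1, 0.13 ± 0.02 lower. In N mice alone 1 respiratory chain member was called, in J mice alone 4, and with the marker covariates 7. For oxidation single letters gave 7 (J) and 8 (N), and for the citric acid cycle 5 and 6. The list median was -0.09 for oxidation, -0.06 for the citric acid cycle and -0.04 for the respiratory chain.

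The list of thermogenic genes, known from brown and beige fat, had 5 lower members of 13, beside 10.3% of all genes, and none higher. Otop1, a proton channel gene expressed in brown fat, lay between 0.923 and 1.46 at day 21 (median 1.03), against 1.72 to 2.14 at day 0 (median 1.97), without overlap. The log2 change was -0.88 ± 0.11 (adjusted p = 5.70e-09). Dio2, which activates thyroid hormone, had medians of 0.0727 at day 21 and 0.119 at day 0 (-0.64 ± 0.10). Kcnk3, a potassium channel, was 0.24 ± 0.05 lower. Ucp1, the uncoupling protein that defines brown fat, did not pass the test (-0.20 ± 0.21), with medians of 0.180 at day 21 and 0.199 at day 0. The count of 5 was 3 without the day 21 mouse N99, without the day 0 mouse J40, in each letter alone and with the marker covariates.

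Of 15 adipokine genes, 3 were higher (1 in N mice alone, none with the marker covariates), beside 9.30% of all genes. A further 2 were lower (1 in J mice alone), beside 10.3%. Lep, the leptin gene, had a median of 17.1 at day 21 (14.4 to 18) and 17.5 at day 0 (16.6 to 18.1). Its log2 change of -0.06 ± 0.03 did not pass the test (adjusted p = 0.208). Adipoq, which encodes adiponectin, had medians of 19.3 at day 21 and 19.1 at day 0 and did not pass either. Retn, the resistin gene, was 0.07 ± 0.01 lower and Cfd, the adipsin gene, 0.07 ± 0.02 higher. Rbp4, the retinol carrier, was 0.15 ± 0.03 lower. Fst, the follistatin gene, was 0.43 ± 0.09 higher, and Agt, the angiotensinogen gene, was 0.52 ± 0.13 higher. Neither Fst nor Agt was called with the marker covariates. Mest, a gene that marks expanding adipose tissue, had a median of 8.62 at day 21 (4.95 to 9.71) and 9.86 at day 0 (9.14 to 10.5). Its call (-0.27 ± 0.10, adjusted p = 0.0410) was lost in 10 of the 22 fits that left out 1 mouse. Sfrp5, which also marks expansion, did not pass the test (0.11 ± 0.08).

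Of 19 adipocyte transcription factors, 7 were higher, beside 9.30% of all genes, and none lower. Klf5, a factor of early adipogenesis, was 0.40 ± 0.10 higher, with medians of 0.684 at day 21 and 0.542 at day 0. Gata2, which restrains differentiation of precursors, was 0.15 ± 0.04 higher, and Ebf1 and Nr2f2 were each 0.09 ± 0.03 higher. Pparg, the master regulator of adipocytes, did not pass the test, with medians of 5.33 at day 21 and 5.71 at day 0. With the marker covariates none of the 19 was called higher, in N mice alone 1 was, and without the day 21 mouse N11 or the day 0 mouse J53 4 were.

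Of 18 collagen genes 11 were lower, beside 10.3% of all genes, and none higher, and the list median was -0.12. Col15a1, a basement membrane collagen, lay between 4.46 and 6.19 at day 21 (median 4.82), against 6.24 to 7.01 at day 0 (median 6.62), without overlap. Its log2 change was -0.41 ± 0.05 (adjusted p = 1.32e-08). Col5a3, a fibrillar collagen of fat, had medians of 3.37 at day 21 and 4.40 at day 0 (-0.37 ± 0.05). Col6a2 was 0.20 ± 0.03 lower and Col4a1, of the basement membrane, was 0.12 ± 0.02 lower. Col1a1, the main fibrillar collagen, did not pass the test (-0.07 ± 0.04). The count of 11 was 9 in N mice alone and 9 with the marker covariates, and 7 in J mice alone. Among 32 other matrix genes 6 were higher, beside 9.30% of all genes, and 3 lower, beside 10.3% (5 lower without the day 21 mouse N80). Single letters gave 4 higher (J) and 2 higher (N), the marker covariates gave 3, and J mice gave no lower one. Thbs2, a matricellular thrombospondin, lay between 1.95 and 3.12 at day 21 (median 2.53), against 1.61 to 1.92 at day 0 (median 1.78). The groups did not overlap, with a log2 change of 0.53 ± 0.07 (adjusted p = 2.51e-07). Tgfbi, a collagen-binding matrix protein, was 0.23 ± 0.03 higher, Dcn, the decorin gene, was 0.15 ± 0.03 higher, and Nid2, a basement membrane linker, was 0.28 ± 0.06 lower. Of 15 precursor and stromal genes 3 were higher, beside 9.30% of all genes. They were Pdgfra (0.24 ± 0.04), the receptor that marks fibroblast-like precursors, Dpp4 (0.34 ± 0.10) and Ly6a (0.09 ± 0.02), both surface markers of these cells. None of the 3 was called in N mice alone, and without the day 21 mouse N3 5 members were called.

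Several mast cell genes were higher at day 21. The list has 12 genes, of which 8 were tested: 5 were called higher, beside 9.30% of all genes, and none lower. The median log2 change was 0.53. Among the 3 that did not pass was Kit, the receptor for stem cell factor on mast cells, with a negative log2 change (-0.16 ± 0.08, adjusted p = 0.135, unadjusted p = 0.0396). Cpa3, the mast cell carboxypeptidase, lay between 0.608 and 1.00 at day 21 (median 0.762), against 0.285 to 0.703 at day 0 (median 0.628). The groups overlapped, and the log2 change was 0.57 ± 0.12 (adjusted p = 0.000385). Cma1, a chymase, had a median of 1.68 at day 21 (1.22 to 1.94) and 1.16 at day 0 (0.573 to 1.49), with a log2 change of 0.63 ± 0.14. Mcpt4, another chymase, was 0.70 ± 0.18 higher, and Tpsb2, a tryptase, was 0.62 ± 0.14 higher. The fifth, named after its values were seen, was Fcer1a, a chain of the IgE receptor (0.49). Chymases and tryptases are families of similar genes, and whether their probes tell the copies apart was not tested. In J mice alone 5 members were called, and in N mice alone or with the marker covariates none was. Cpa3 changed by 0.78 in J mice and 0.33 in N mice, a difference that did not pass the test. At day 0 the summed mast cell genes ranged from 2.85 to 6.47, and at day 21 from 5.75 to 7.98. The lowest Cpa3 values of day 0 were those of 3 J mice. Their part in the result was not tested beyond leaving out 1 mouse at a time, which gave 5 or 6 called members.

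The motif GATAA, bound by GATA factors in mast cells, was present in 4 of the 4 called mast cell members with a RefSeq promoter (100%), against 25.81% of all promoters, searched on both strands. Here too a match is not a measured binding site, and uncalled members were not compared. The promoters of the most significant members follow with this motif in capitals, 5′ to 3′ on the strand of the gene: Cpa3 (chr3:20242132-20242431, minus strand) and Cma1 (chr14:55944626-55944925, minus strand).
Cpa3: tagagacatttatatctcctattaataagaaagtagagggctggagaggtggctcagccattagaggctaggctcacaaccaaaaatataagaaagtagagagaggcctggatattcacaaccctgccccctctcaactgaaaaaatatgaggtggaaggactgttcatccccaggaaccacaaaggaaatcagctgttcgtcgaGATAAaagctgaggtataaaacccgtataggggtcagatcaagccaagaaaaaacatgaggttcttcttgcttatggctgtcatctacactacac
Cma1: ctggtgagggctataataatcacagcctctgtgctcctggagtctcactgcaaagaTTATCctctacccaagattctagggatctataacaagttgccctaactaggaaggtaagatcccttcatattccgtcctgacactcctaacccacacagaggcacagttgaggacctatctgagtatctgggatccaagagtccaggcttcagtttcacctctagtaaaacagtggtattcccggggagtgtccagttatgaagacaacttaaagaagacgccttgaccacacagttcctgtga

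Of 22 macrophage genes 17 were tested, and 7 were called higher, beside 9.30% of all genes, and none lower. All 17 had a positive log2 change, with a median of 0.16. Cd14, a receptor for bacterial lipopolysaccharide, had medians of 1.13 at day 21 and 0.992 at day 0 (0.22 ± 0.05). Csf1r, the receptor for macrophage growth factor, was 0.17 ± 0.04 higher, Fcgr1, an IgG receptor, 0.29 ± 0.07 higher, and Mrc1, the mannose receptor, 0.22 ± 0.06 higher. The count was 4 without the day 0 mouse J17, 6 in J mice alone, none in N mice alone and 1 with the marker covariates. The summed macrophage genes ranged from 64.1 to 77.3 at day 21 and from 50.95 to 74.5 at day 0. Adgre1, the classic macrophage surface marker, and Ccl2, the monocyte attractant, did not pass the test. Trem2, which defines lipid-associated macrophages, did not pass either. Of 16 genes of these macrophages 2 were higher, beside 9.30% of all genes, and 1 lower, beside 10.3%. Apoe, an apolipoprotein made by macrophages and adipocytes, was the clearest of them, at 14.2 to 16.1 at day 21 (median 15.4) and 12.2 to 14.6 at day 0 (median 13.2), a log2 change of 0.21 ± 0.03 (adjusted p = 2.10e-08). T and NK cell genes had no called member among 15 and none with an unadjusted p under 0.05 in limma. The same was true of the 10 genes of MHC class II. These lists also leaned upward: 13 of the 15 T and NK cell genes were positive (median 0.21) and 9 of the 10 MHC genes (median 0.05). All 10 B cell genes tested were positive too (median 0.26).

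Granulocyte genes did not move together. Of 9 tested, 3 were lower (1 in J mice alone) and 1 higher, beside 10.3% and 9.30% of all genes. Rnase2a, an eosinophil-associated ribonuclease, showed the largest fall of all named genes. It had a median of 0.183 at day 21 (0.102 to 0.476), against 0.729 at day 0 (0.253 to 1.06), and the groups overlapped. The log2 change was -1.58 ± 0.24 (adjusted p = 9.46e-07). Its relative Ear2 was 0.29 ± 0.10 lower. The Ear2 call was lost in 7 of the 22 fits that left out 1 mouse, in J mice alone and with the marker covariates. Whether the probes tell the members of this ribonuclease family apart was not tested. S100a8, a neutrophil and myeloid calcium-binding protein, was 0.69 ± 0.14 lower. The higher member was Csf3r, whose call was lost in N mice alone. Of the 9 tested, 5 had a positive log2 change, and the list median was 0.05. Epx and Il5ra, which define eosinophils, were below the dim-gene filter.

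The other large falls were of varied genes. Saa3, an acute-phase serum amyloid made in fat, had a median of 0.766 at day 21 (0.301 to 2.15) and 1.84 at day 0 (1.12 to 2.48), a log2 change of -1.22 ± 0.22 (adjusted p = 2.37e-05). Tph2, a tryptophan hydroxylase of serotonin synthesis best known from neurons, had a median of 0.473 at day 21 (0.224 to 1.26) and 1.05 at day 0 (0.641 to 1.57), a log2 change of -1.17 ± 0.21. Both overlapped between the days. Pla2g2e, a secreted phospholipase, had medians of 0.502 at day 21 and 1.08 at day 0 (-1.01 ± 0.13). Ncan, a proteoglycan known from brain, was 0.97 ± 0.15 lower, Lipf, a lipase known from stomach, 0.93 ± 0.18 lower, and Adh6b, an alcohol dehydrogenase, 0.81 ± 0.11 lower.

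The largest rise was that of Cxcl13, the chemokine that attracts B cells. It had a median of 1.87 at day 21 (1.39 to 4.15) and 1.14 at day 0 (0.473 to 2.42), a log2 change of 1.10 ± 0.27 (adjusted p = 0.00218). The highest day 21 values were those of N3 (4.15) and N99 (3.24) and the highest day 0 value that of N74 (2.42), the arrays high in B cell genes. Without the arrays high in B cell genes the log2 change was 1.07 (adjusted p = 0.00162), while the call was lost in N mice alone (0.84, adjusted p = 0.171) and with the marker covariates (0.67, adjusted p = 0.167). Prtn3, a serine protease of myeloid cells, had medians of 0.561 at day 21 and 0.300 at day 0 (0.72 ± 0.14). Ccn5, a secreted protein of the CCN family, had medians of 2.33 at day 21 and 1.36 at day 0 (0.69 ± 0.12). Vnn1, a pantetheinase, had a median of 2.81 at day 21 (2.17 to 3.42) and 1.94 at day 0 (1.34 to 2.52). Cacna1e, a calcium channel subunit, was 0.76 ± 0.15 higher, Myoc, the myocilin gene, 0.66 ± 0.17, Il1r2, the decoy receptor for interleukin-1, 0.61 ± 0.17, and Cldn1, a tight junction protein, 0.57 ± 0.11. Il1r2 was not called in N mice alone (0.12, adjusted p = 0.798) or with the marker covariates (0.17, adjusted p = 0.552), and Myoc was not called in either of these fits.

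Among antioxidant genes, 3 of 22 were higher and 3 lower, beside 9.30% and 10.3% of all genes. Without the day 21 mouse J3, 5 were higher. Gpx3, the secreted glutathione peroxidase, lay between 10.7 and 13.4 at day 21 (median 12.8), against 7.75 to 10.5 at day 0 (median 9.0), without overlap. Its log2 change was 0.45 ± 0.05 (adjusted p = 7.81e-11). Sod2, the mitochondrial superoxide dismutase, moved the other way, at 7.10 to 7.96 at day 21 and 8.04 to 8.72 at day 0. Of 14 growth hormone and IGF genes 4 were higher (1 with J mice and 2 with N mice fitted alone), beside 9.30% of all genes. Among them were the binding proteins Igfbp3 (0.28 ± 0.07) and Igfbp6 (0.29 ± 0.07). A further 1 was lower, beside 10.3%. The lower one, named after its values were seen, was Igf1, the growth factor itself (-0.08 ± 0.03, adjusted p = 0.0432), and no gene of the list was called lower in either letter alone or with the marker covariates. Hsd11b1, which regenerates active glucocorticoid, was 0.20 ± 0.04 higher. Of 20 lysosomal genes 7 were lower and of 25 proteasome genes 6, beside 10.3% of all genes, and none higher in either list. Lysosomal genes called lower numbered 0 (J alone), 1 (N alone) and 1 (marker covariates), and those of the proteasome 1, 3 and 3 in the same fits. Of 29 ribosomal protein genes 10 were tested, and 5 were higher, beside 9.30% of all genes. Single letters gave 2 (J) and 0 (N), and the marker covariates 1. Arrays centred on their median gave 2, and array weights 1. The count of 5 was 1 without the day 21 mouse N99 or N3 and 8 without the day 0 mouse N74. Leaving out any of 8 other mice lowered it by over 1.5 times. Of 4 nerve genes 2 were higher, beside 9.30% of all genes: Mbp (0.31 ± 0.07), of myelin, and Sox10 (0.26 ± 0.08), of Schwann cells. Neither was called in N mice alone or with the marker covariates. Clock, heat shock and interferon response genes had no called member among 18, 17 and 17, with 2, 1 and 3 members at an unadjusted p under 0.05 in limma.

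**Figure D3:**
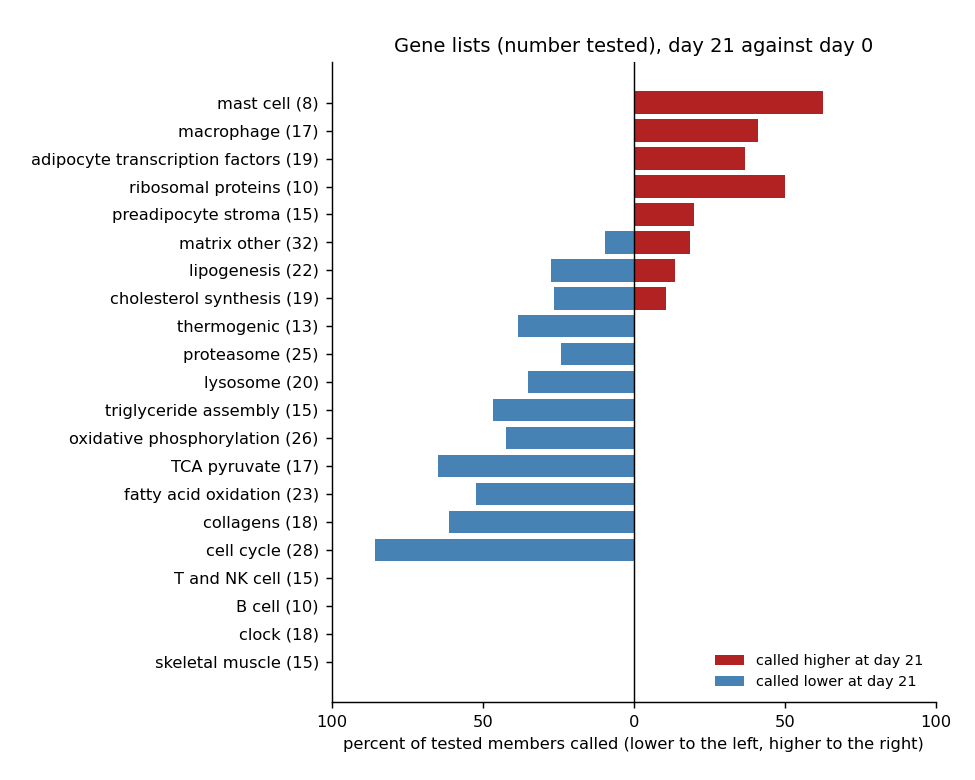
Percent of the tested members of each gene list that were called lower (left) or higher (right) at day 21 against day 0, with the number tested in parentheses. Cell cycle has the longest bar, 24 of 28 lower, and the B cell, T and NK cell, clock and muscle lists have no called member.

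Day 21 was also placed between its neighbours. Against day 0, limma called 207 genes after 3 days, 1282 after 7, 1804 after 14, 2634 after 21, 3614 after 42 and 2925 after 60, all against the same arrays. Day 60 held 6 arrays, all N, and each other day named 10 or 11 of both letters, so the counts do not compare sizes of effect. Between day 21 and day 14 no gene was called, with 413 at an unadjusted p under 0.05, and the count was also 0 in each of the 13 other settings. Between day 42 and day 21, 37 genes (0.275%) were called, 11 (0.0818%) higher and 26 (0.193%) lower at day 42. The count was between 0 and 572 in the other settings, so it is given as a description of this setting. Tph2 was a further 0.91 ± 0.22 log2 lower at day 42 than at day 21 (adjusted p = 0.0436), Ear2 0.45 ± 0.10 lower, and Sez6l 0.61 ± 0.15 lower. Ubd, a ubiquitin-like modifier, was 0.41 ± 0.09 lower and Cyp2c23, an epoxygenase, 0.40 ± 0.10 lower. On the higher side were Cish (0.85 ± 0.21), a cytokine-induced inhibitor of STAT5 signalling, and, by smaller amounts, Gys1 (0.21 ± 0.05), the muscle-type glycogen synthase, Fdft1 (0.20 ± 0.05), Mief2 and Pdxp.

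Gys2 averaged 1.49 ± 0.16 before restriction, and 1.27 ± 0.14 after 1 day, 1.14 ± 0.18 after 3, 0.929 ± 0.15 after 7, 0.786 ± 0.13 after 14, 0.739 ± 0.16 after 21, 0.785 ± 0.22 after 42 and 0.755 ± 0.095 after 60 days (SD). Prc1 averaged 0.400 ± 0.066 before restriction, and 0.262 ± 0.023 after 1 day, 0.246 ± 0.020 after 14, 0.231 ± 0.034 after 21 and 0.184 ± 0.023 after 60 days. Day 1 held 5 mice, all J, and day 60 held 6, all N. For Gys2 the mean was lower at each later day up to day 21 and lay within 1 SD of the day 21 mean from day 14 on. For Prc1 the day 1 mean was already closer to the day 21 mean than to the day 0 mean. Gpx3 averaged 9.12 ± 0.84 before restriction, and 11.4 ± 0.81 after 7 days, 12.4 ± 0.87 after 21 and 13 ± 0.80 after 42.

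**Figure D4:**
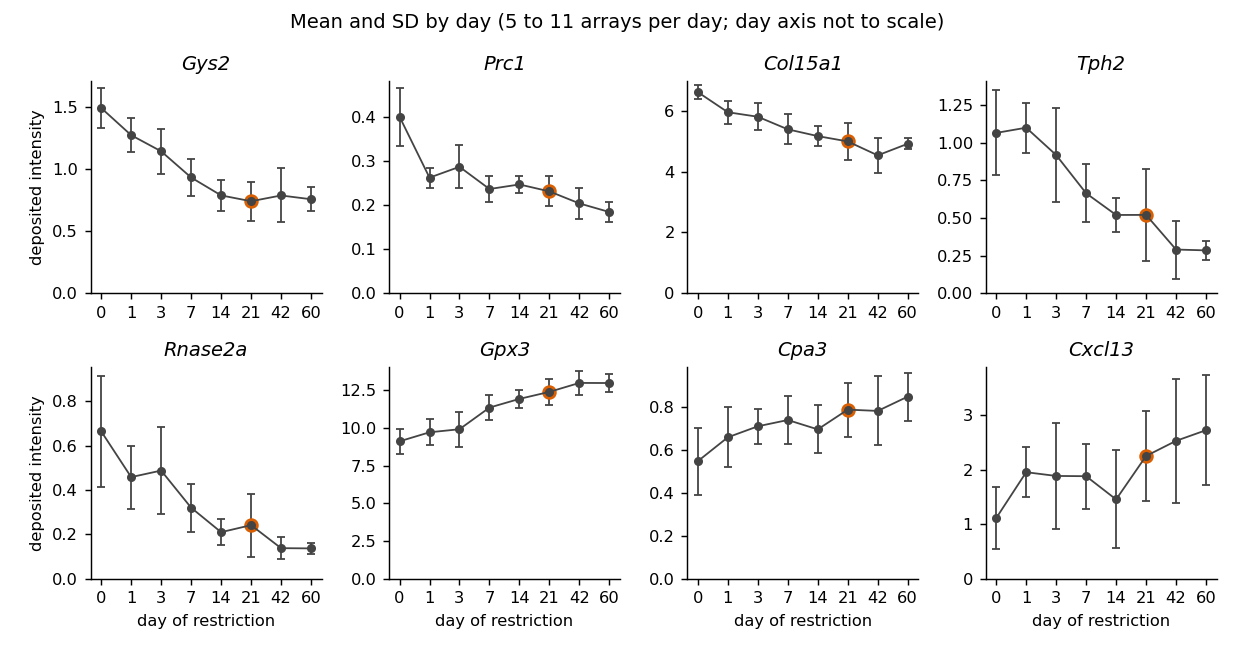
Mean intensity and SD by day of restriction for 8 genes (days evenly spaced on the x axis, 5 to 11 arrays a day, day 21 in orange). Gys2, Prc1, Col15a1, Tph2 and Rnase2a lie below their day 0 mean at day 21, and Gpx3, Cpa3 and Cxcl13 above it.

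The effect of day 21 was set against the letters and against another depot, whose mesenteric label some marker levels also go against. No gene differed between N and J mice in its day 21 effect (0 of 13448 by limma, 644 at an unadjusted p under 0.05), with 5 and 6 mice per letter and day. The depot labelled mesenteric, of which 74 animals were also sampled in the depot labelled perigonadal, had 2160 genes called at day 21. Its 29 cell cycle genes tested held 27 lower ones, and its 18 collagens 11, beside 1051 lower of all 13457 genes. Some other lists had fewer calls there. Lower genes numbered 3 for oxidation (12 in the depot labelled perigonadal), 3 for the citric acid cycle (11) and 0 for the respiratory chain (11). Respiratory chain genes called higher numbered 2, and macrophage genes called higher 0 (7 in the depot labelled perigonadal). A call in 1 depot alone is not a tested difference between the depots. The day 21 effect differed between the depot labelled perigonadal and the one labelled mesenteric in 17 of 13457 genes (0.126%), 14 (0.104%) with a more positive change in the first and 3 (0.0223%) with a more negative one. With the animal as a replicate block 10 genes were called, 6 of them shared with the 17. Il1r2 changed by 0.61 in the depot labelled perigonadal (means 0.988 at day 21 and 0.664 at day 0) and by -0.55 in the one labelled mesenteric. In the latter it was dim, with means of 0.0653 at day 21 and 0.0951 at day 0. The difference of the log2 changes was 1.16 ± 0.20 (adjusted p = 0.000928, and 0.0181 with the block). Bambi, a pseudoreceptor that dampens TGF-beta signalling, fell by 0.19 in the depot labelled perigonadal and changed by 0.10 in the one labelled mesenteric, a difference of -0.29 ± 0.06 (adjusted p = 0.0194, and 0.0398 with the block). Fcgr1, at 0.29 in the first and -0.18 in the second, lost its call under the block (adjusted p = 0.0730). No cell cycle, collagen, oxidation or respiratory chain gene was among the 17.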

How the data were processed

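Total RNA labelled with biotin was hybridised to Affymetrix arrays, per the labels. The deposited table holds 1 linear intensity per probe set and array, from 0.0105 to 29.7 in this depot. The labels and the table state no summarising or scaling step by the authors, and the mean of each array lay between 0.988 and 0.998. Of 32640 probe sets, 25508 have 1 gene symbol in the platform annotation and 7132 have none, and symbols were updated through RefSeq (GRCm38.p6, 16601 of 16643 found). The log2 of the deposited intensity was taken with no offset. The probe set with the highest mean stood for a gene, also where others of the gene disagreed, and genes above percentile 25 of all probe set means were tested, 13448 in all.

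Each contrast came from limma 3.58.1 (R 4.3.3, trend and robust options) on 74 arrays of the depot, with day as a factor and the ID letter as an additive term. The array of 1 day 3 mouse without a letter was left out. Adjusted p-values are Benjamini-Hochberg over all genes tested, two-sided, and the number of arrays limits the precision. Named genes are the 12 largest called rises and falls with 1 sign in both letters, up to 4 called members of each list by smallest adjusted p, a fixed set of key genes, and 5 genes a direction in other contrasts. Members and lists were chosen with earlier results of these data known.

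Arrays of both depots from 1 animal pair by the animal's ID. Over 74 animals their residuals correlated with a median of 0.078 (range -0.18 to 0.59), and the fit with the animal as a replicate block is the alternative. The script was tested on simulated shifts. Alternatives varied the filter, probe sets, scaling, offset, samples, weights, covariates and the mice used. Covariates or exclusions by B cell genes were chosen after seeing the data.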

Additional observations from a re-analysis of the deposited data

Results flagged for a closer look

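The day 21 effect differed between the depot labelled perigonadal and the one labelled mesenteric in 17 genes. The differences of log2 change (labelled perigonadal minus labelled mesenteric) were 1.30 for S100a7l2, 1.16 for Il1r2, 0.73 for Dusp15, 0.60 for Tmem26 and 0.47 for Fcgr1 on the positive side, and -0.81 for Hydin, -0.37 for Tcf21 and -0.29 for Bambi on the negative side. With the animal as a block the adjusted p was 0.0858 for Dusp15, 0.0724 for Tmem26, 0.0730 for Fcgr1 and 0.0724 for Hydin, so these calls were lost, and it was 0.00721 for S100a7l2. S100a7l2 changed by 0.02 in the depot labelled perigonadal and by -1.28 in the depot labelled mesenteric, and Dusp15 by -0.04 and -0.77 in the same order. S100a7l2 was dim in the depot labelled perigonadal (means 0.0544 at day 21 and 0.0531 at day 0), so its 0.02 says little. In the depot labelled mesenteric its means were 0.0679 at day 21 and 0.162 at day 0. Il1r2 was dim in the depot labelled mesenteric (means 0.0653 and 0.0951). Hydin changed by -0.52 and 0.28. It was dim in both depots, with means of 0.0931 at day 21 and 0.132 at day 0 (labelled perigonadal) and 0.0715 and 0.0547 (labelled mesenteric). Tmem26 was likewise dim in both, with means of 0.0782 and 0.0634 (labelled perigonadal) and 0.0455 and 0.0570 (labelled mesenteric). Tcf21 was near the lower end of the intensities in the depot labelled perigonadal, at 0.0202 at day 21 and 0.0211 at day 0, so its difference rests on the change in the depot labelled mesenteric (0.30), and with the animal as a block its adjusted p was 0.662.

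Among 45 groups of 4 to 10 arrays tested for a sample far from the others, over 9 genes, 8 had one, where chance alone flags about 1 in 20. Mouse N10 of day 42 was high in Rnase2a (0.268, next highest 0.150) and in Tph2 (0.782, next 0.447). Mouse N70 of day 42 was high in Gys2 (1.32, next 0.881). Mouse N62 of day 60 was high in Prc1 (0.229, next 0.181). Mouse J26 of day 14 was low in Cpa3 (0.413, next lowest 0.629), mouse N14 of day 60 was low in Col15a1 (4.59, next 4.91), and mouse J12 of day 3 was low in Lep (16, next 17.1). Mouse N93 of day 14 was high in Cxcl13 (3.64, next 2.11), and its B cell genes, summed over the 10 tested (13.8), were also among the high ones. N10, N62 and J12 were likewise among the 15 arrays high in B cell genes. The part of these cells was not tested. Groups of 11, day 21 and day 0 among them, are outside the range of this rule.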

How the results depend on the processing

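The count of 2634 genes at day 21 against day 0 was 875 in J mice alone (464 higher, 411 lower), 1119 in N mice alone (384 higher, 735 lower) and 1231 with marker scores as covariates (492 higher, 739 lower). These fits use fewer mice or more terms. Under the other settings that kept every mouse or left out whole sets of arrays it lay within 1.5 times of 2634, at most 3354 with array weights. Leaving out 1 mouse gave 2245 to 2746 genes (1015 to 1327 higher, 1187 to 1477 lower). The 37 genes between day 42 and day 21 were 1 with no filter on dim genes, 23 with arrays centred on their median, 5 with array weights, 0 with marker covariates and 0 without arrays high in markers of another tissue. Among settings chosen after seeing the data, they were 2 with B cell and muscle scores as covariates and 572 without arrays high in B cell genes. The cause was not tested. The 17 genes whose effect differed between depots were 10 with the animal as a replicate block, and this block applied to no other count. Scd1 (-0.0018, adjusted p = 0.975) and Glb1 (0.0075, adjusted p = 0.865) changed sign when probe sets were averaged. Of 140 named called genes, 51 were called in the same direction under every alternative that tested them, and 17 lost their call when 1 mouse was left out. Of 2014 list counts under alternatives, for the 53 counts above 0, 303 lay outside 1.5 times of the count given.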
